A study of Homo sapiens with 12 samples.

Results

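A group of 148 genes had lower transcript levels after TGFβ1 in both MDA-MB-231 cell lines sequenced here. They were selected on their measured values. Each had a mean of at least 100 normalized counts under vehicle in both lines and a TGFβ1 mean of at most 0.65 times the vehicle mean in both, and in each line all 3 TGFβ1 libraries were below all 3 vehicle libraries. The table held 19907 gene symbols, 12147 of them passed the vehicle minimum, and 1.22% of those met the rest of the rule. The lower level after TGFβ1 is therefore how the genes were chosen and is described without a test. The rule did not fix which line responded more or in which line a gene was higher, so those comparisons were tested. They used the same libraries as the rule, and genes lowered by the rule in 1 line only had been left out.

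MDA-MB-231 is an established human triple-negative breast cancer (TNBC) line that makes the glucocorticoid receptor (GR, gene NR3C1). The wt-GR cells were a clone that went through the genome editing work with an unaltered receptor, and the S134A-GR cells were clone #1, in which both alleles of NR3C1 encode alanine in place of Ser134. Each genotype is thus 1 clone, and the receptor genotype and other differences between the clones cannot be told apart. Before treatment both lines spent 18 h in IMEM medium with 1% charcoal-stripped serum (DCC). TGFβ1 (10 ng/mL) or vehicle was then added for 6 h, and each of the 4 combinations gave 3 replicate libraries, 12 together.

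TGFβ1 binds a pair of receptor kinases that phosphorylate SMAD2 and SMAD3, which enter the nucleus with SMAD4 and raise or lower transcription together with other factors. It also signals through kinase cascades, among them p38 MAPK. In epithelial and carcinoma cells it is known for lowering growth-promoting and epithelial genes and for repressing ID genes.

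The reads recovered per library (in units of 1e6) were 56.4 to 129.8 with a median of 90.4, and 3 reads corresponded to at most 4.89 normalized counts. Every library was above the average number of reads per sample that the authors state. The reason was not tested, and the unit counted is not given in the sources used here. The normalized counts of VIM, CD44, AXL, MSN and ZEB1, which mark mesenchymal-like breast lines, were 8858 or more in every library, whereas ESR1 and CDH1 did not exceed 7.32 and 12.5. The markers GATA3 (688 to 1183) and EPCAM (318 to 1093) were not absent. Of markers of other cells, PTPRC did not exceed 9.80, but CD68 (26579 to 42856), PECAM1 (746 to 1454) and CDH5 (13.2 to 234) were counted, and their part in the results was not tested. NR3C1 ranged from 8336 to 12729, and counts per gene cannot show the Ser134 codon. The labels do not say whether replicates came from separate cultures, so p-values measure only the spread between these libraries, and in bulk RNA fewer cells making a transcript and less transcript per cell cannot be told apart.

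The sequences before the start sites of 5 of the genes are shown because these genes had the deepest lowering or a response that differed between the lines. ATOH8, F2RL3 and PPARGC1A kept the smallest share of their vehicle level over both lines, and AHRR and TIMP3, like F2RL3, responded differently in the 2 lines. Each run is the 250 bases upstream of the RefSeq start in GRCh38.p14, written 5′ to 3′ in the direction of transcription. They lie at chr2:85753741-85753990 on the plus strand, chr19:16888749-16888998 on the plus strand, chr4:24472906-24473155 on the minus strand, chr5:321464-321713 on the plus strand and chr22:32801455-32801704 on the plus strand. Capitals mark matches, on either strand, to 10 short sequences.
ATOH8: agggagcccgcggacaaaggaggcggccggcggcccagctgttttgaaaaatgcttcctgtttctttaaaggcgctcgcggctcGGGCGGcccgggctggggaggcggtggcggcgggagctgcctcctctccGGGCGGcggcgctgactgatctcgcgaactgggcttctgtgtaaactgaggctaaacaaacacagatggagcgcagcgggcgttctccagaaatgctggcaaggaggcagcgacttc
F2RL3: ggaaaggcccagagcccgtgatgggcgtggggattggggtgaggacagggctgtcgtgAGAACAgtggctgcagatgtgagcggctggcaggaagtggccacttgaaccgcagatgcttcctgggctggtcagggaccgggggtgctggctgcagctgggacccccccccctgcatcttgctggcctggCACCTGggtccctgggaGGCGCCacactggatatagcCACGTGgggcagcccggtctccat
PPARGC1A: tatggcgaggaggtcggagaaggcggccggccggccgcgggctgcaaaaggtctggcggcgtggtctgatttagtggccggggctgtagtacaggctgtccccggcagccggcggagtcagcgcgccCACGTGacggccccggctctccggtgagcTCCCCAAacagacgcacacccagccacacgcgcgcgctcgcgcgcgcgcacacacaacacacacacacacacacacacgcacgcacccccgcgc
AHRR: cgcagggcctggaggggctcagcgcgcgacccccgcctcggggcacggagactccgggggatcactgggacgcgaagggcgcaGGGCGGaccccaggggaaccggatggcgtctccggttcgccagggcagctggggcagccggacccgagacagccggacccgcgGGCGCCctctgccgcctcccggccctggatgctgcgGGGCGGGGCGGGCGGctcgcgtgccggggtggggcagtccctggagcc
TIMP3: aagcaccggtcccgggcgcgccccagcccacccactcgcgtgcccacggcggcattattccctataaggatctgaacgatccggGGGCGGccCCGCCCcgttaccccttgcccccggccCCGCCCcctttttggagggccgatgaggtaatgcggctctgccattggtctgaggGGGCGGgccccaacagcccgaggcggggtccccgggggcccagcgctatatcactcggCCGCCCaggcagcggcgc

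The sequences searched were the core of the TGFβ inhibitory element (TTGGNGA), a paired SMAD box (GTCTAGAC), a SMAD GC box (GGCGCC), the AP-1 site (TGANTCA), the E-box of ZEB and SNAIL factors (CACCTG), the E-box of MYC (CACGTG), an NF-kB site (GGGANTTCC), the GC box of SP1 and KLF factors (GGGCGG), a single arm of the GR element (AGAACA) and a forkhead site (TGTTTAC). The ATOH8 stretch held 2 GC boxes and the TIMP3 stretch 5. The F2RL3 stretch held 1 SMAD GC box, 1 ZEB and SNAIL E-box, 1 MYC E-box and 1 GR arm. The PPARGC1A stretch held 1 TGFβ inhibitory element and 1 MYC E-box, and the AHRR stretch held 1 SMAD GC box and 4 GC boxes, of which neighbouring ones overlap. The PPARGC1A stretch lies before the outer end of a gene span of 681 kb. Counts per gene do not show which start site of a gene was in use. Among 27305 promoter stretches of the same length, 42.3% held a GC box, 16.1% a SMAD GC box, 17.5% a ZEB and SNAIL E-box, 6.49% a MYC E-box, 12.4% a GR arm and 12.6% the TGFβ inhibitory element. The paired SMAD box was in 0.176% of them, the AP-1 site in 6.60%, the NF-kB site in 1.60% and the forkhead site in 2.98%. Promoter entries were matched for 106 of the 148 genes, which is 71.6% and under the 80% needed for a comparison, so a share of motifs over the whole group would be void. CSF1, WNT7B, CIITA and NWD1 were among the genes with no entry.

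After TGFβ1 the 148 genes stood at a median of 54.3% of their vehicle mean in the wt-GR line and of 56.3% in the S134A-GR line. Where 2 percents follow a gene, the first is for wt-GR and the second for S134A-GR, each relative to the vehicle mean of that line. The TGFβ1 mean was no more than 0.5 times the vehicle mean for 57 genes in wt-GR cells, for 48 in S134A-GR cells and for 36 in both. Limma, fitted over all 18579 genes tested, put 147 of the 148 below vehicle at an adjusted p under 0.05 in wt-GR cells, where 9.82% of genes tested were called lower, and 146 in S134A-GR cells, where 8.69% were called lower. Since the rule used this contrast, nothing is read from these counts. LGR5 missed that threshold in the wt-GR line, and SMPDL3B and SSTR2 missed it in the S134A-GR line. The opposite rule, with each bound turned to the raised side, was met by 131 genes.

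**Figure D1:**
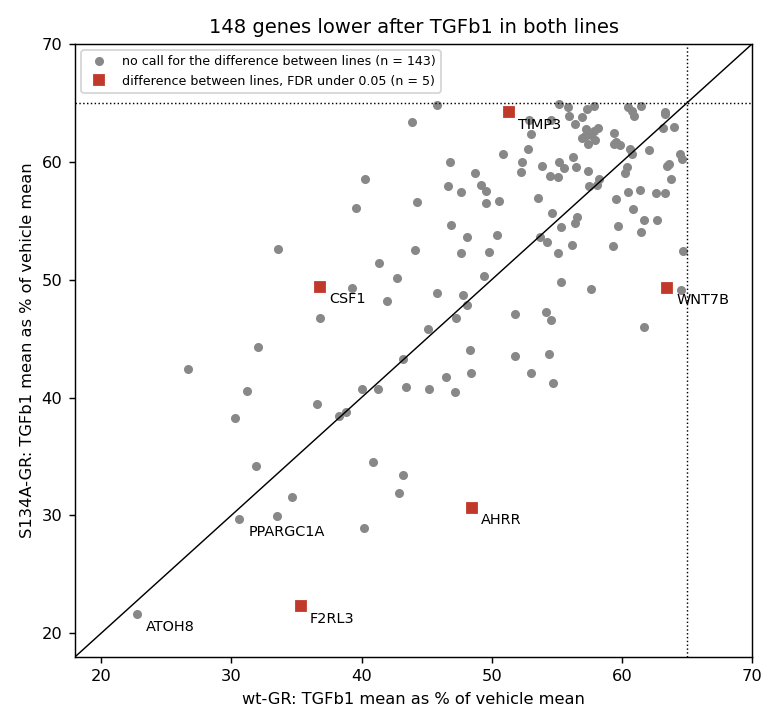
TGFβ1 mean as a percent of the vehicle mean in wt-GR cells (x axis) and in S134A-GR cells (y axis) for the 148 genes, with dotted lines at the limit of the rule and a solid line where both lines are equal. ATOH8 lies lowest along the diagonal, F2RL3, AHRR and WNT7B lie below it, and CSF1 and TIMP3 above it.

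The genes nearest to the limit were FCGBP (55.2% of vehicle in the wt-GR line and 64.9% in the S134A-GR line), RAB26 (64.8% in S134A-GR cells) and DENND2A (64.8% in S134A-GR cells). Just outside it, the TGFβ1 and vehicle means of S134A-GR cells were 689 and 1059.8 normalized counts for ANK1 and 239.9 and 368 for SERPINB9, and those of wt-GR cells were 4909 and 7521 for TOX2. Another 4 genes, CLK2, SMARCB1, DNAJA3 and GTF2IP1, met the ratio in both lines but had overlapping libraries, and they were left out by the rule.

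The same measure was read in libraries left out of each selection of genes. The rule itself was set with earlier results of these data known, so this is not an independent reading. When the 4 libraries numbered 1, 2 or 3 were set aside in turn and the rule was applied to the other 8, it chose 160, 152 and 139 genes. In the libraries set aside, the TGFβ1 value was below the vehicle value in both lines for 157, 149 and 137 of them, against 24.9%, 35.2% and 34.9% of the genes not chosen. The ratio was again at most 0.65 in both lines for 102, 108 and 98 of them, which is 63.75%, 71.1% and 70.5%. Of the genes not chosen, 0.350%, 0.433% and 0.475% met it. The other chosen genes missed that limit when read in 1 library per group.

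ATOH8, a basic helix-loop-helix transcription factor, stood at the lowest share of vehicle over both lines. In wt-GR cells it measured 168, 157 and 225 normalized counts under vehicle and 30.0, 50.5 and 44.8 after TGFβ1. In S134A-GR cells it measured 303, 318 and 298 under vehicle and 71.3, 50.6 and 76.5 after TGFβ1. These are 22.8% of vehicle in the wt-GR line and 21.6% in the S134A-GR line, and no TGFβ1 library of either line reached the lowest vehicle library of either line. The gene lies at chr2:85753991-85791383 on the plus strand.

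F2RL3 encodes PAR4, a thrombin receptor of the G protein-coupled class. It measured 2257, 2510.1 and 2511 normalized counts under vehicle and 862, 839.9 and 869.8 after TGFβ1 in wt-GR cells and 1026, 1120.2 and 920.3 under vehicle and 250.1, 217 and 217 after TGFβ1 in S134A-GR cells, which left 35.3% of vehicle in the wt-GR line and 22.3% in the S134A-GR line. PPARGC1A, the coactivator PGC-1α of mitochondrial gene expression, measured 243, 196 and 158 normalized counts under vehicle and 47.8, 69.6 and 65.2 after TGFβ1 in wt-GR cells. In S134A-GR cells PPARGC1A measured 199.8, 208 and 202 under vehicle and 79.9, 63.8 and 37.2 after TGFβ1, so that the mean went from 199 ± 42.5 to 60.8 ± 11.5 in one line and from 203 ± 4.10 to 60.3 ± 21.6 in the other (SD, n = 3). VIPR1, a receptor for vasoactive intestinal peptide, measured 3498, 3539 and 3869.6 normalized counts under vehicle and 1289, 1178 and 1192 after TGFβ1 in wt-GR cells and 1321, 1176 and 1169.7 under vehicle and 391, 352 and 355 after TGFβ1 in S134A-GR cells. The wt-GR cells after TGFβ1 were thus at about the vehicle level of the S134A-GR cells for VIPR1.

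RGCC, a regulator of the cell cycle, was at 31.9% of vehicle in the wt-GR line and 34.2% in the S134A-GR line. CIITA, the transactivator of MHC class II genes, measured 1567, 1482 and 1364 normalized counts under vehicle and 484, 495 and 550.0 after TGFβ1 in wt-GR cells and 1846, 1712 and 1775 under vehicle and 533, 542 and 611 after TGFβ1 in S134A-GR cells, or 34.7% and 31.6% of vehicle. CLDN2, a tight junction claudin that forms cation pores, was at 30.3% and 38.2%, and NWD1, a protein with NACHT and WD repeat domains, at 26.7% and 42.4%. SDPR (now CAVIN2), a coat protein of caveolae, measured 3492, 3669 and 3433 normalized counts under vehicle and 1186, 1086 and 1029.7 after TGFβ1 in wt-GR cells and 1124, 1067 and 1156 under vehicle and 460.3, 439 and 459 after TGFβ1 in S134A-GR cells. MAP2K6, the kinase MEK6 that phosphorylates p38 MAPK, measured 288, 368 and 311 normalized counts under vehicle and 138, 137 and 114 after TGFβ1 in wt-GR cells and 157, 141 and 151 under vehicle and 55.2, 40.5 and 34.3 after TGFβ1 in S134A-GR cells. The lowest S134A-GR vehicle library of MAP2K6 was only just above the highest wt-GR library after TGFβ1.

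**Figure D2:**
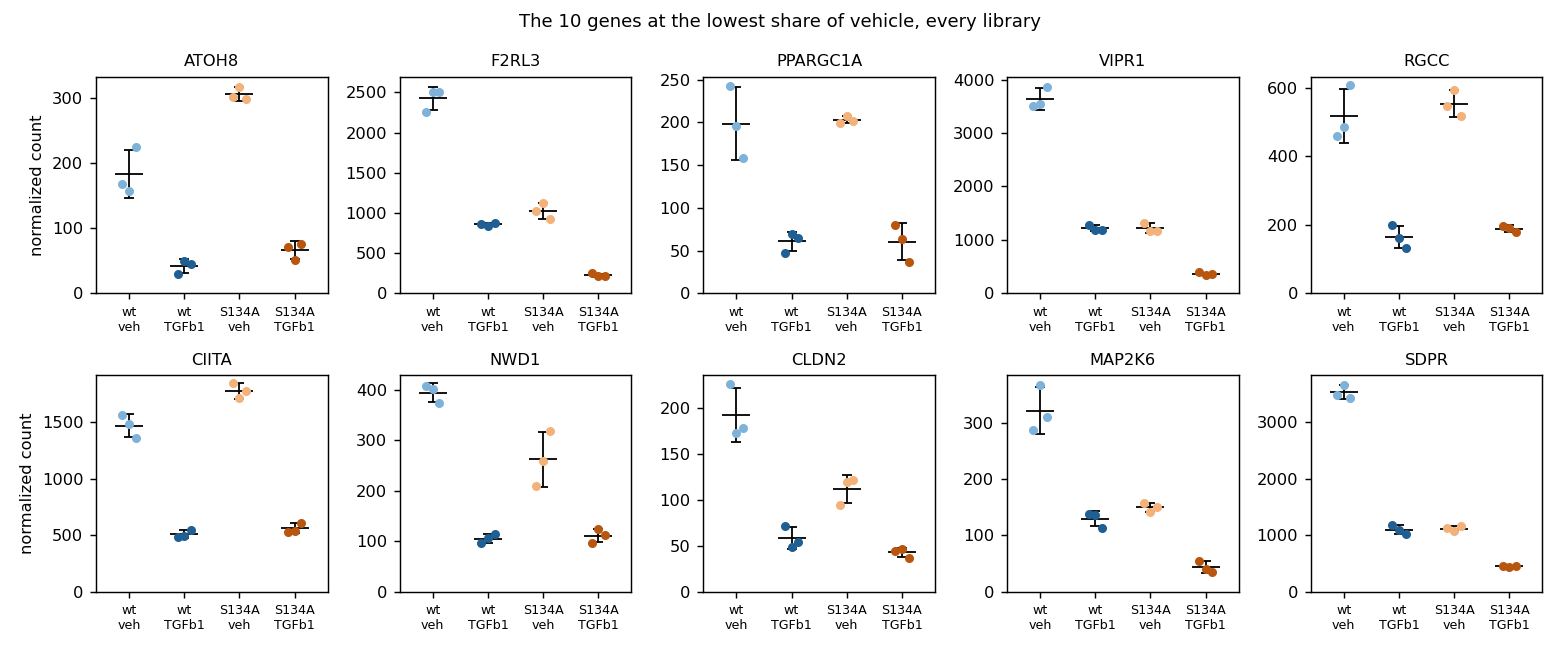
Normalized counts in each of the 12 libraries for the 10 genes with the lowest mean share of vehicle over both lines, as points, with the mean (dash) and SD (bars) of the 3 replicates in each group. In every panel both TGFβ1 groups lie below the vehicle group of the same line.

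The genes with the highest levels were a different set. EMP1, an epithelial membrane protein, had 81138 ± 2907 normalized counts (SD, n = 3) under vehicle in the wt-GR line and 77322 ± 1733 in the other line, and stood after TGFβ1 at 64.6% and 60.2% of those means. Per kilobase of exon, the vehicle level of EMP1 averaged over lines was 10115 normalized counts, against 4215 for BMP4 and 3240 for TIMP3. MYO18A, an unconventional myosin, and MBP, myelin basic protein, came next in normalized counts but were lower per kilobase, at 510 and 512. They stood after TGFβ1 at 50.8% and 60.7% and at 63.3% and 64.2% of vehicle in wt-GR and S134A-GR cells.

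Of secreted signals, CSF1, the growth factor of macrophages, measured 8124, 8068 and 8067 normalized counts under vehicle and 3034, 2842 and 3051 after TGFβ1 in wt-GR cells. In S134A-GR cells CSF1 measured 4636, 4518 and 4682 under vehicle and 2177, 2261 and 2394 after TGFβ1. Of the 20 genes in the chemokine and cytokine list with enough vehicle expression, CSF1 alone met the rule. Over all genes passing the vehicle minimum, 1.22% met it. PTX3, a secreted pentraxin, measured 8545, 9252 and 9521 normalized counts under vehicle and 3859, 3881 and 4316 after TGFβ1 in wt-GR cells and 6126, 5761 and 6077 under vehicle and 2875, 2978 and 3579.6 after TGFβ1 in S134A-GR cells. BMP4, a ligand of the TGFβ superfamily, had 12324 ± 212 normalized counts under vehicle and 6003 ± 238 after TGFβ1 in wt-GR cells (SD, n = 3), and 13777 ± 419.6 and 8136 ± 803 in S134A-GR cells.

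The Wnt ligand WNT7B measured 2612, 2525 and 2542 normalized counts under vehicle and 1649.7, 1585 and 1641 after TGFβ1 in wt-GR cells and 4004, 4078 and 4054 under vehicle and 2114, 1977 and 1894 after TGFβ1 in S134A-GR cells. LGR5, an R-spondin receptor, was at 54.4% and 43.7% of vehicle but varied between libraries, with 78.9, 32.4 and 25.0 normalized counts in the S134A-GR TGFβ1 libraries. Other ligands were NRG2, a neuregulin that binds ERBB receptors (42.9% of vehicle in the wt-GR line and 31.9% in the S134A-GR line), KITLG, the ligand of KIT (57.2% and 62.2%), EFNB2, an ephrin (63.1% and 62.9%), and FGFBP1, a carrier of fibroblast growth factors (54.6% and 63.6%).

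The receptors included ERBB3, a partner of ERBB2 that binds neuregulins, which measured 293, 324 and 255 normalized counts under vehicle and 163, 103 and 146 after TGFβ1 in wt-GR cells and 573, 519 and 539 under vehicle and 225, 229 and 206 after TGFβ1 in S134A-GR cells. NRG2 and ERBB3, a ligand and its receptor, were thus both lowered. MERTK, a receptor kinase for apoptotic cell clearance, was at 54.6% and 46.6% and TNFRSF1B, a TNF receptor, at 41.3% and 51.4%. TGFBR3, the coreceptor betaglycan that presents TGFβ to its receptors, measured 2762, 2714 and 2368 normalized counts under vehicle and 1234, 1207 and 1229 after TGFβ1 in wt-GR cells and 1176, 1266 and 1216 under vehicle and 808, 719 and 667 after TGFβ1 in S134A-GR cells, which left 46.8% of vehicle in the wt-GR line and 60.0% in the S134A-GR line.

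Of the 123 genes in the list of G protein-coupled receptors and signaling with enough vehicle expression, 6 (4.88%) were among the 148. The share over all genes passing the vehicle minimum was 1.22%. The 6 genes were F2RL3, VIPR1, ADGRF5, SSTR2, ADORA2B and GPR15. LGR5, GPRC5C and the chemokine receptor CCR1, which are not in that list, are of the same receptor class. ADORA2B, an adenosine receptor, measured 4944, 5269.6 and 5719 normalized counts under vehicle and 2981, 2932 and 3004 after TGFβ1 in wt-GR cells and 3825, 3823 and 3749 under vehicle and 2438, 2423 and 2420.0 after TGFβ1 in S134A-GR cells. The adhesion receptor ADGRF5 was at 54.3% and 53.2%, SSTR2, a somatostatin receptor, at 63.3% and 64.1% and GPR15, a receptor of lymphocyte homing, at 59.5% and 56.9%.

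Inhibitors of receptor signaling were present as well. SPRY1, a Sprouty protein that damps receptor tyrosine kinase and ERK signaling, measured 2167, 2318 and 2293 normalized counts under vehicle and 925, 819 and 938 after TGFβ1 in wt-GR cells and 1216, 1177 and 1229 under vehicle and 763, 655 and 614 after TGFβ1 in S134A-GR cells. It stood at 39.6% of vehicle in the wt-GR line and 56.1% in the S134A-GR line. SOCS2, which limits cytokine receptor signaling, was at 57.8% and 64.7%. They were 2 of 34 genes that passed the vehicle minimum in the list of ERK pathway feedback, which also holds SOCS genes. Over all genes passing that minimum, 1.22% met the rule.

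Among transcription factors, ID3, a helix-loop-helix protein that blocks DNA binding of its partners, measured 513, 491 and 505 normalized counts under vehicle and 325, 313 and 293 after TGFβ1 in wt-GR cells and 579.7, 519 and 556 under vehicle and 263, 206 and 292 after TGFβ1 in S134A-GR cells. It was at 61.7% of vehicle in the wt-GR line and 46.0% in the S134A-GR line. TFAP2C, an AP-2 factor of mammary epithelium, measured 2627, 2569 and 2588 normalized counts under vehicle and 959.8, 899 and 1009 after TGFβ1 in wt-GR cells and 1273, 1089 and 1209 under vehicle and 596, 498 and 574 after TGFβ1 in S134A-GR cells. The forkhead factor FOXQ1 was at 49.5% and 56.5% and FOXO6 at 57.4% and 61.5%. The zinc finger factors OSR1 and OSR2 were at 49.4% and 50.3% and at 61.4% and 57.6%, and ZNF467 at 62.1% and 61.0%. ZNF467 was the only one of 393 ZNF genes with enough vehicle expression that met the rule. Over all genes passing the vehicle minimum, 1.22% met it.

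AHRR, the repressor of the aryl hydrocarbon receptor, measured 986, 892 and 863 normalized counts under vehicle and 458, 416 and 455 after TGFβ1 in wt-GR cells and 1470.4, 1477 and 1410.3 under vehicle and 436, 502 and 398 after TGFβ1 in S134A-GR cells. CYP1A1 and CYP1B1, the best known cytochrome P450 targets of that receptor, were members too, and this grouping was made after their values were seen. CYP1A1 measured 274, 254 and 289 normalized counts under vehicle and 138, 143 and 152 after TGFβ1 in wt-GR cells and 492, 428 and 465 under vehicle and 204, 177 and 202 after TGFβ1 in S134A-GR cells. CYP1B1 was at 59.6% of vehicle in the wt-GR line and 61.7% in the S134A-GR line.

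CITED2, a partner of the coactivators CBP and p300, was at 58.2% and 58.5% of vehicle, nearly the same in both lines. It had 6690.2 ± 165 and 6853 ± 88.4 normalized counts under vehicle in wt-GR and S134A-GR cells (SD, n = 3). BHLHE41 and DBP, both transcription factors of the circadian clock, were at 57.2% and 62.8% and at 56.4% and 54.8%. FBXO32, a ubiquitin ligase subunit known as a FOXO target in starved muscle, measured 3968, 4194 and 4071 normalized counts under vehicle and 2159.6, 2195 and 2231 after TGFβ1 in wt-GR cells and 4360.3, 4054 and 4078 under vehicle and 2383, 2593 and 2479 after TGFβ1 in S134A-GR cells. PDK4, the kinase that switches off pyruvate dehydrogenase and a known target of FOXO factors and GR, was at 42.7% and 50.1%.

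THRB, a nuclear receptor for thyroid hormone that was singled out after its values were seen, measured 1098, 1089 and 936 normalized counts under vehicle and 583, 614 and 560.1 after TGFβ1 in wt-GR cells and 685, 641 and 648 under vehicle and 411, 397 and 384 after TGFβ1 in S134A-GR cells.

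A group of genes of sphingolipid and phospholipid handling was put together after their values were seen. SPNS2, which exports sphingosine-1-phosphate, measured 3291, 3344 and 3582 normalized counts under vehicle and 1283, 1181 and 1277 after TGFβ1 in wt-GR cells and 3219.8, 3362 and 3158 under vehicle and 1218, 1255 and 1365 after TGFβ1 in S134A-GR cells. PPAP2B, a phosphatase of lipid phosphates, measured 1465, 1543 and 1517 normalized counts under vehicle and 667, 661 and 715 after TGFβ1 in wt-GR cells and 1495, 1647 and 1586 under vehicle and 767, 716 and 683 after TGFβ1 in S134A-GR cells. ST3GAL5, the synthase of the ganglioside GM3, was at 55.3% and 54.4%, and SPTLC3, a subunit of serine palmitoyltransferase, at 49.8% and 52.4%. In limma the log2 response of S134A-GR cells less that of wt-GR cells was 0.10 (SE 0.08, adjusted p = 0.715) for SPNS2 and 0.021 (SE 0.089, adjusted p = 0.957) for PPAP2B. Under vehicle SPTLC3 was lower in the S134A-GR line, by a log2 difference of -1.38 (SE 0.11, adjusted p = 1.49e-07).

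Transport and metabolism were represented by 8 of 265 solute carrier and channel genes that passed the vehicle minimum. That is 3.02%, beside 1.22% of all genes passing it. SLC37A2, a sugar phosphate exchanger, measured 3746, 3720.2 and 3954 normalized counts under vehicle and 1506, 1488 and 1439 after TGFβ1 in wt-GR cells and 3213, 3239.8 and 3218 under vehicle and 1285, 1212 and 1251 after TGFβ1 in S134A-GR cells, and was at 38.8% of vehicle in each. Also among them were the glycine transporter SLC6A9 (60.5% and 64.7%), the glucose transporter SLC2A12 (63.6% and 59.8%), SLC16A6 of the monocarboxylate transporter family (41.9% and 48.2%), the mitochondrial carrier SLC25A27 (64.0% and 63.0%), the anion transporter SLC26A11 (50.6% and 56.7%) and the phospholipid flippase ATP8A1 (61.7% and 55.0%).

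Extracellular matrix and junction genes included TIMP3, an inhibitor of metalloproteinases that is bound to matrix. TIMP3 measured 23349, 22160.4 and 21708 normalized counts under vehicle and 11899, 11016 and 11585 after TGFβ1 in wt-GR cells and 7272, 7271 and 7603 under vehicle and 4839, 4858 and 4522 after TGFβ1 in S134A-GR cells. CXADR, a junctional adhesion protein, was at 40.3% of vehicle in the wt-GR line and 58.5% in the S134A-GR line. Of the 35 genes in the junction and keratin list with enough vehicle expression, CXADR alone met the rule. Over all genes passing the vehicle minimum, 1.22% met it. The tight junction claudin CLDN2 is not in that list. ADAMTS15, a secreted metalloproteinase, was at 59.3% and 52.9%. ITGB8, an integrin subunit known for activating latent TGFβ, was singled out after its values were seen and measured 297, 228 and 199 normalized counts under vehicle and 71.1, 93.7 and 67.2 after TGFβ1 in wt-GR cells and 456, 473 and 476 under vehicle and 238, 195 and 189.6 after TGFβ1 in S134A-GR cells.

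Of the 251 genes in the list of small GTPases and their regulators with enough vehicle expression, 6 (2.39%) were among the 148. The share over all genes passing the vehicle minimum was 1.22%. The 6 genes were RHOV, RASL11A, RAB26 and RAB27B, the TBC domain protein TBC1D8 and the CDC42-binding kinase CDC42BPG. TBC1D8 had the highest level of them, with 6009, 6329.6 and 6485 normalized counts under vehicle and 3620.5, 3268 and 3478 after TGFβ1 in wt-GR cells and 3523, 3521 and 3669 under vehicle and 1729, 1957 and 1916 after TGFβ1 in S134A-GR cells. RHOV, an atypical small GTPase, was at 43.2% and 43.3%, CDC42BPG at 48.4% and 42.1%, RAB27B, which takes part in vesicle secretion, at 47.6% and 57.4% and RASL11A at 52.8% and 61.1%. The GTPase regulators CHN2 (47.3% and 46.8%), CYTH4 (54.2% and 47.3%), IQSEC2 (57.4% and 59.2%) and DENND2A (61.5% and 64.8%) are outside that list.

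The interferon-induced genes IFIT2 and MX2 were at 57.5% and 58.0% and at 52.8% and 63.6% of vehicle. IFIT2, an antiviral protein with tetratricopeptide repeats, measured 4113, 4396 and 4314 normalized counts under vehicle and 2171, 2654 and 2549 after TGFβ1 in wt-GR cells and 1862, 1806 and 1827 under vehicle and 1079, 1113 and 994 after TGFβ1 in S134A-GR cells. Over the whole list of interferon-stimulated genes, 30 of 72 were called lower after TGFβ1 in wt-GR cells and 20 of 72 in S134A-GR cells, with 3 called higher in each, where 9.82% and 8.69% of all genes tested were called lower. The median log2 difference over the list was -0.20 and -0.11. No gene of this list met the rule for raised genes. Only 131 of the 12147 genes passing the vehicle minimum met that rule, so nothing is read from this.

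The list of long noncoding genes, chosen by symbol, held 7 of the 148 among 436 that passed the vehicle minimum. That is 1.61%, near the 1.22% of all genes passing it. SLCO4A1-AS1 measured 1903, 1909 and 2082 normalized counts under vehicle and 788, 797 and 848 after TGFβ1 in wt-GR cells and 690.0, 713 and 653 under vehicle and 259.6, 337 and 241 after TGFβ1 in S134A-GR cells, and it overlaps SLCO4A1 on the opposite strand. Whether the counting used strand is not given in the sources used here, and without strand reads of the 2 genes cannot be told apart. LOC100130238 (now GALNT9-AS1) was at 56.4% and 63.2%, LINC01443 at 52.2% and 59.1%, LOC100507002 at 47.8% and 48.7%, LOC440028 (now LINC02709) at 60.5% and 57.4% and LOC100506476 (now MIDEAS-AS1) at 62.7% and 55.1%. LINC00341 was at 44.3% and 56.6%, and its symbol maps in RefSeq to the protein-coding locus of SYNE3, another of the 148 genes, so these 2 are not independent entries.

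The remaining 71 genes stood at 32.1% to 64.7% of vehicle in wt-GR cells and at 33.4% to 64.6% in S134A-GR cells. Those with roles in signaling or growth control were PIK3C2B, PAK6, PAG1, SHC4, CHN2, CYTH4, IQSEC2, TXK, PTPRH, PRLR, CCR1, SGK223 (now PRAG1), PRICKLE1, CTNNBIP1, LRP5L, CDK15, CABLES1, LZTS1 and MTUS1. Transcription and RNA-binding proteins included THRB, MYB, AFF3, ZBTB7C and RBM47. Enzymes and lipid proteins were CYP1A1, CYP1B1, METTL7A (now TMT1A), METTL7B (now TMT1B), ACSS1, KHK, HPGD, PADI3, PLB1, PPAP2B (now PLPP3), SPNS2, SPTLC3, SMPDL3B, ST3GAL5, OSBPL5, PLIN4, COLGALT2 and PLLP. Surface, matrix and cytoskeletal proteins were ITGB8, ITGA10, CD34, VWF, KLRC2, EVI2B, C10orf54 (now VSIR), OLFML2B, ANXA9, SNTB1, SHROOM2, SYNE3, MYO15B, DNAH2, SLAIN1, KLHL4 and TMC8. The rest were ANKRD33B, C15orf62, DOPEY2 (now DOP1B), FAM179A (now TOGARAM2), FAM63A (now MINDY1), HECW1, IQCD (now DRC10), LONRF2, NHSL2, RP1L1 and SH3TC2.

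Read across whole lists, the lowered genes were spread over many functions. The 148 included 6 of 68 expressed growth factor and receptor genes, 7 of 106 developmental transcription factors, 4 of 49 genes of the FOXO and starvation list, 2 of 37 Notch and Wnt genes, 2 of 47 genes of TGFβ superfamily signaling and 2 of 50 immediate early and KLF factors, against 1.22% of all genes passing the vehicle minimum. They included 1 of 36 cytokine and TNF receptors, 1 of 33 NF-kB pathway genes and 1 of 28 glucocorticoid-responsive genes, and none of 64 genes of the cytostatic and cell cycle list. The lists overlap, with CITED2 and PDK4 in 2 lists each, and 90 of the 148 were in no list. The lists are not complete, and some members with a matching role, such as CCR1 and PRLR, are in none of them. The lists were also chosen with earlier results of these data known, so nothing is read from their shares beside 1.22%.

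The response of those lists over all their tested genes went both ways. Called lower in wt-GR cells were 24 of 95 growth factor and receptor genes, 36 of 142 developmental factors, 17 of 53 FOXO and starvation genes, 11 of 53 Notch and Wnt genes, 9 of 60 TGFβ superfamily genes, 10 of 60 immediate early and KLF factors, 15 of 38 ERK feedback genes and 17 of 65 cytostatic and cell cycle genes. Called higher were 25, 26, 9, 9, 22, 21, 7 and 4 of them, beside 9.82% called lower and 11.2% called higher among all genes tested. In S134A-GR cells 25, 36, 15, 13, 5, 13, 11 and 14 were called lower and 21, 20, 8, 4, 21, 19, 10 and 6 higher, beside 8.69% and 10.0%.

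Of smaller or broader lists, those called lower in wt-GR and S134A-GR cells were 4 and 1 of 38 chemokines and cytokines, 8 and 9 of 46 cytokine and TNF receptors, 11 and 12 of 62 junction and keratin genes, 68 and 59 of 477 solute carriers and channels, and 20 and 30 of 479 ZNF genes. They were also 35 and 28 of 217 G protein-coupled receptor and signaling genes, 61 and 50 of 319 small GTPases and regulators, 6 and 3 of 38 NF-kB pathway genes, 5 and 6 of 33 glucocorticoid-responsive genes, and 73 and 58 of 1823 long noncoding genes. Called higher in the same lists, in the same order, were 4 and 4, 10 and 11, 14 and 10, 56 and 49, and 24 and 23, and then 25 and 23, 47 and 34, 8 and 9, 6 and 7, and 73 and 45. The shares over all genes tested were 9.82% and 8.69% lower and 11.2% and 10.0% higher.

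The next comparison asked whether TGFβ1 lowered these genes more in one line than in the other. It used the difference of the 2 log2 responses, S134A-GR minus wt-GR, in limma. A positive value is a smaller fall in S134A-GR cells. Of the 148 genes, 84 had a positive and 64 a negative value, and the median was 0.032 on the log2 scale, against a median SE of 0.15 for a single gene. The median was 0.0035 over the genes that passed the vehicle minimum and -0.0029 over all genes tested. At an adjusted p under 0.05 the response of 5 genes differed, 2 with a smaller and 3 with a larger fall in S134A-GR cells, where 0.414% of all genes tested were called in either direction. At an unadjusted p under 0.05 it was 28 genes, 18.9% of the 148, beside 9.30% of genes tested and 10.9% of those passing the vehicle minimum. Of the 28, 21 had the smaller fall in S134A-GR cells. The direction of such calls over all genes was not counted, so nothing is read from the 21. No difference reached 1 on the log2 scale in either direction, and SEs ran from 0.046 to 0.48, the widest being that of LGR5. Since the rule required a fall in both lines, genes that met it in 1 line only are outside this comparison. These were 112 genes in wt-GR cells only and 81 in S134A-GR cells only. The count of 5 and the size of the differences hold only for genes lowered in both lines.

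**Figure D3:**
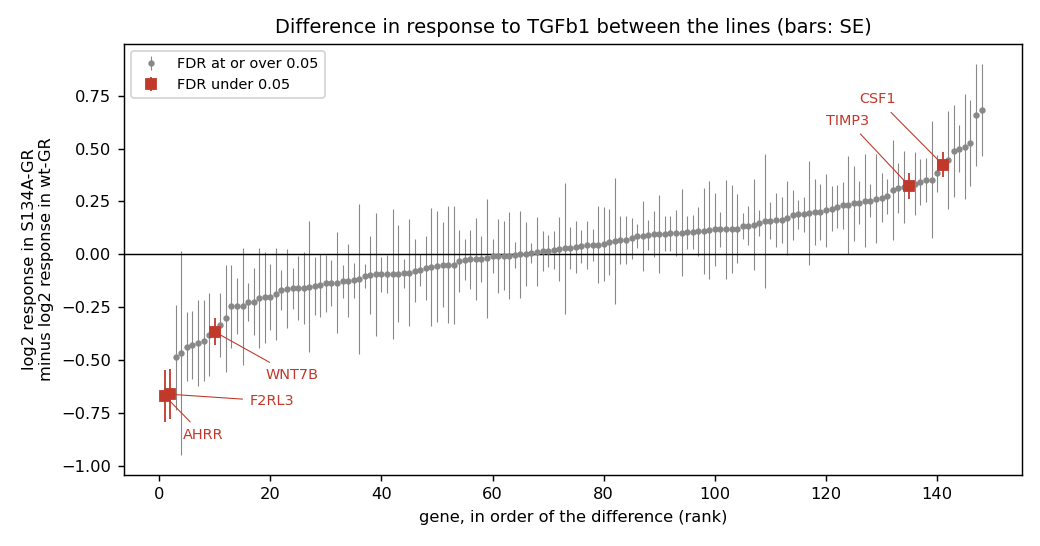
Difference in log2 response to TGFβ1, S134A-GR minus wt-GR, for the 148 genes in order of size (y axis, log2 scale), with SE as bars and the 5 genes with an adjusted p under 0.05 as squares. The 5 named genes lie at -0.67 to 0.42, and some grey points lie further out on the right with wider SE bars.

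CSF1 had a smaller fall in S134A-GR cells. It stood at 36.8% of vehicle in the wt-GR line and 49.4% in the S134A-GR line, a difference of 0.42 (SE 0.061, adjusted p = 0.00870). The vehicle level was 8086 ± 32.8 in wt-GR and 4612 ± 84.7 in S134A-GR cells (SD, n = 3), and after TGFβ1 it was 2976 ± 116 and 2277 ± 109.6, so the gap between the lines was narrower after TGFβ1 and the 4 groups did not overlap. CSF1 lies at chr1:109910506-109930992.

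TIMP3 also had a smaller fall in S134A-GR cells, with 51.3% of vehicle in the wt-GR line and 64.2% in the S134A-GR line and a difference of 0.32 (SE 0.06, adjusted p = 0.0332). All wt-GR libraries of TIMP3, with or without TGFβ1, were above all S134A-GR libraries. It lies at chr22:32801705-32863041, inside SYN3, which is on the opposite strand.

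F2RL3 had a larger fall in S134A-GR cells, a difference of -0.66 (SE 0.12, adjusted p = 0.0259). All 3 wt-GR libraries after TGFβ1 were below all 3 S134A-GR vehicle libraries for F2RL3, and all 3 S134A-GR libraries after TGFβ1 were lower still. AHRR had a larger fall in S134A-GR cells as well, with 48.5% of vehicle in the wt-GR line and 30.6% in the S134A-GR line and a difference of -0.67 (SE 0.12, adjusted p = 0.0318). Under vehicle AHRR was higher in the S134A-GR line (1453 ± 36.8 against 914 ± 64.0, SD, n = 3), and after TGFβ1 both lines stood at about the same level (445 ± 52.9 and 443 ± 23.4). Of the transcript stretches of AHRR, 28.7% are shared with another gene, the readthrough PDCD6-AHRR, so its counts are uncertain. F2RL3 lies at chr19:16888999-16892606 and AHRR at chr5:321714-438285.

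WNT7B was the third gene with a larger fall in S134A-GR cells, with 63.5% of vehicle in the wt-GR line and 49.3% in the S134A-GR line and a difference of -0.37 (SE 0.065, adjusted p = 0.0256). Under vehicle it too was higher in the S134A-GR line (4046 ± 37.9 against 2559.5 ± 46.2, SD, n = 3), and it lies at chr22:45920366-45977162.

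**Figure D4:**
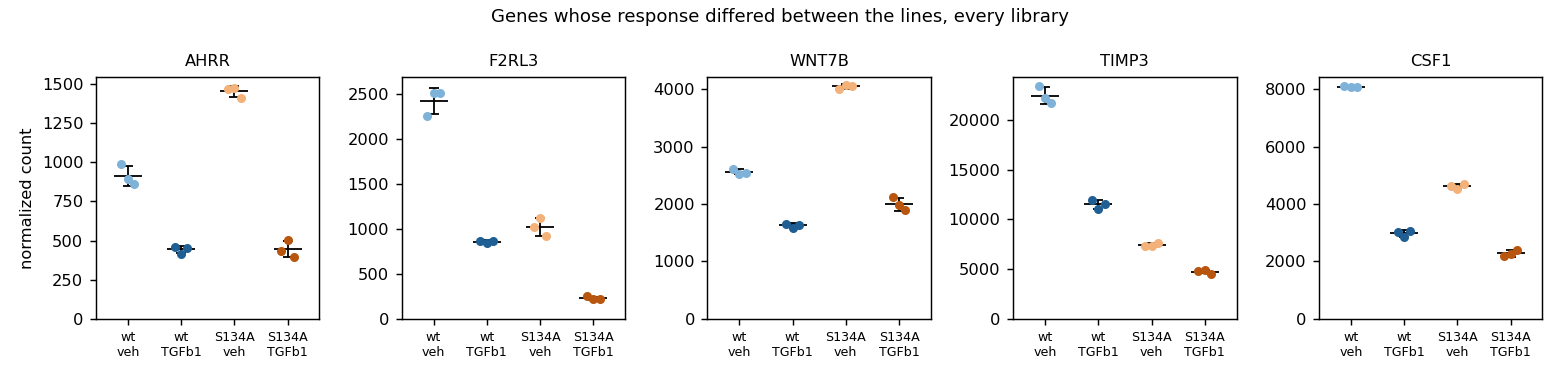
Normalized counts in each library (points), with the mean (dash) and SD (bars) of 3 replicates, for the 5 genes whose response differed between the lines. AHRR starts higher in S134A-GR cells and ends level with wt-GR cells, WNT7B starts higher and stays higher, and F2RL3, TIMP3 and CSF1 are lower in S134A-GR cells under both treatments.

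The 5 calls were also made by the quasi-likelihood test of edgeR and by DESeq2. Those other than CSF1 were lost in most fits with 1 library left out. When each of the 12 libraries was left out in turn, CSF1 was called every time, with values of 0.39 to 0.46 and adjusted p of 0.00658 to 0.0394. F2RL3 was called in 3 of the 12 fits, those without wt-GR vehicle replicate 3, S134A-GR vehicle replicate 3 or S134A-GR TGFβ1 replicate 1, and its adjusted p in the other fits was 0.0626 to 0.0849. AHRR was called without wt-GR vehicle replicate 1 or 3 or S134A-GR TGFβ1 replicate 2, and was at 0.0505 to 0.108 otherwise. WNT7B was called without wt-GR vehicle replicate 1 or 3 or S134A-GR TGFβ1 replicate 1, and was at 0.0505 to 0.0944 otherwise. TIMP3 was called without wt-GR vehicle replicate 3 or S134A-GR TGFβ1 replicate 3, and was at 0.0555 to 0.119 otherwise. None of the 5 changed direction in any of these fits. Over all genes tested, 166 were called without wt-GR vehicle replicate 3 and 22 to 58 without another library, against 77 in the main fit. Over all 148 genes, S134A-GR TGFβ1 replicate 1 was the highest of its group for 72 and replicate 3 the lowest for 67, and the median difference in response was 0.012 without the former and 0.064 without the latter. The part of these libraries in the single calls is given by the fits without them.

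SPRY1 and SDPR came next among the genes with a smaller fall in S134A-GR cells, with differences of 0.50 (SE 0.11, adjusted p = 0.0915) and 0.38 (SE 0.087, adjusted p = 0.103), which missed the threshold in limma and in edgeR and passed it in DESeq2. For the deepest gene, ATOH8, the difference was -0.092 (SE 0.31, adjusted p = 0.943), and for PPARGC1A it was -0.12 (SE 0.35, adjusted p = 0.938). The values for ID3 (-0.44 (SE 0.16, adjusted p = 0.411)), BMP4 (0.27 (SE 0.082, adjusted p = 0.282)), TGFBR3 (0.35 (SE 0.11, adjusted p = 0.283)) and MAP2K6 (-0.49 (SE 0.25, adjusted p = 0.577)) missed the threshold too, which does not show that the lines responded alike.

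The level of these genes differed between the lines far more often than their response did, and the same held over all genes tested. Of all genes tested, 0.414% were called for the difference in response. Under vehicle, 65 of the 148 were lower in S134A-GR cells and 41 higher at an adjusted p under 0.05 in limma, where 26.5% of genes tested were lower and 25.0% higher. Among genes passing the vehicle minimum the shares were 34.5% and 30.0%. After TGFβ1 again 65 were lower and 41 higher, where 25.7% and 23.1% of genes tested were lower and higher. Among genes passing the vehicle minimum these shares were 33.1% and 28.7%. In both treatments and in the same direction 95 genes were called, and none was called in opposite directions. The share of all genes called in both treatments was not counted, so nothing is read from these 95. The 2 comparisons use different libraries, but the rule required a fall from vehicle to TGFβ1 in both lines, so they are not free of the choice.

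ADGRF5 had the largest difference. It measured 5802, 5601 and 5256 normalized counts in the wt-GR vehicle libraries and 435, 425 and 469 in the S134A-GR vehicle libraries, a log2 difference of -3.65 (SE 0.069, adjusted p = 2.54e-13). After TGFβ1 the difference was -3.67 (SE 0.069, adjusted p = 1.54e-13), so the lines were as far apart as before. GPRC5C, an orphan receptor of the G protein-coupled class, measured 1631, 1662 and 1708 and 466, 456 and 369.7 under vehicle in wt-GR and S134A-GR cells, a log2 difference of -1.96 (SE 0.088, adjusted p = 6.19e-10).

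Also lower in S134A-GR cells under vehicle were RCSD1, an actin-capping regulator (-1.73 (SE 0.11, adjusted p = 2.41e-08)), MX2, an interferon-induced GTPase (-1.71 (SE 0.15, adjusted p = 3.44e-07)), and ADAMTS15 (-1.70 (SE 0.068, adjusted p = 1.95e-10)). VIPR1 (-1.57 (SE 0.069, adjusted p = 5.11e-10)) and IFIT2 (-1.22 (SE 0.068, adjusted p = 4.56e-09)) were lower in S134A-GR cells too.

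The largest difference in the other direction was that of LOC100130238, with 419, 498 and 493 normalized counts in wt-GR and 1842, 1951 and 1876 in S134A-GR vehicle libraries (2.01 (SE 0.089, adjusted p = 5.46e-10)). This gene overlaps GALNT9 on the opposite strand, and their reads cannot be told apart without strand. MAP1A, a microtubule-associated protein (1.52 (SE 0.20, adjusted p = 2.44e-05)), NAT16, an acetyltransferase (1.48 (SE 0.14, adjusted p = 1.11e-06)), SLC25A27 (1.32 (SE 0.20, adjusted p = 6.35e-05)) and GPR15 (1.31 (SE 0.11, adjusted p = 2.00e-07)) were also higher in S134A-GR cells. The 3 wt-GR vehicle values of MAP1A spread widely, at 311, 192 and 153, yet all were below the lowest S134A-GR vehicle library.

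**Figure D5:**
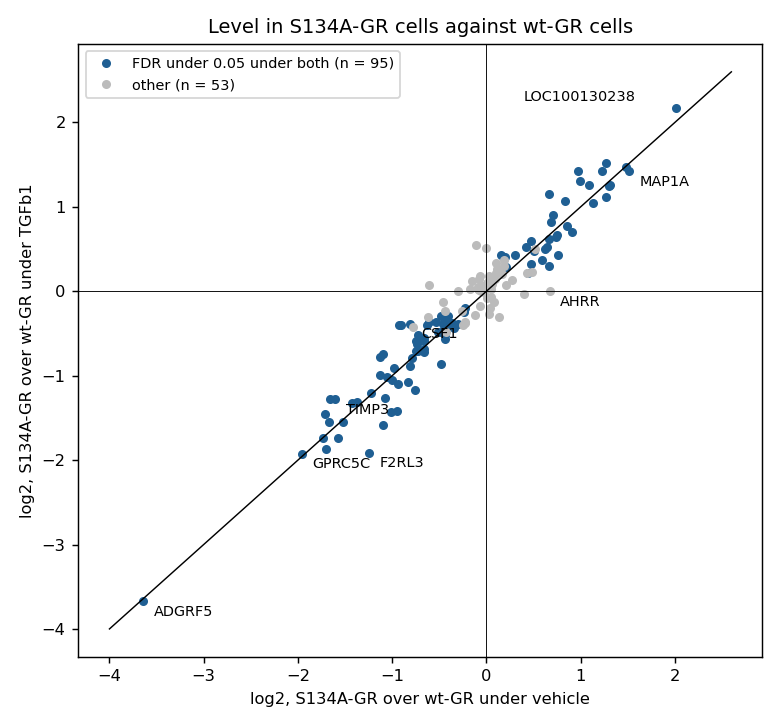
Log2 level in S134A-GR cells over wt-GR cells under vehicle (x axis) and under TGFβ1 (y axis) for the 148 genes, with the line of equality. Points lie along the line, from ADGRF5 at the lower left to LOC100130238 at the upper right, and AHRR lies at 0 on the y axis.

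Features that the rule did not use were set beside those of the other genes passing the vehicle minimum, without a test. Of the 148 genes 141 were protein coding (95.3% against 94.5%), with LINC00341 counted as coding at the SYNE3 locus. The median gene span was 42.8 kb against 30.6 kb, the median exon length 6.10 kb against 5.51 kb, and the median number of exon blocks 11 in both. The median vehicle level was 735 normalized counts against 2989, and the rule bounds this level only from below. In 10 pairs, both members lay within 500 kb of each other on the same chromosome, among them NWD1 and F2RL3 on chromosome 19 with 71.0 kb between them, ATOH8 and ST3GAL5 on chromosome 2 with 45.7 kb, and SLC25A27 and ADGRF5 on chromosome 6 with 174 kb. LINC00341 and SYNE3 are 1 of the 10 pairs. Stretches of 75 bases shared with another gene made up at least 10% of the transcripts for 9 of 146 genes with transcripts, among them LRP5L (50%), AHRR, SLC2A12 (25.3%), KLRC2 (21.0%) and EFNB2 (16.7%), whose counts are uncertain. An annotated gene on the opposite strand overlapped 82 of the 148. The close pairs, shared stretches and overlaps were counted for the 148 only, so they are not shown to be particular to these genes.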

How the data were processed

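RNA-seq libraries of the 2 MDA-MB-231 lines were analysed from the values the authors deposited. The authors used Trimmomatic for trimming, HISAT2 for alignment to hg38 and featureCounts for counting, and divided each library by its DESeq2 size factor, so the deposited signal is a normalized count per gene symbol. The annotation, the strand setting and the unit counted (reads or pairs) are not given in the sources used here. The submitters' notes name DESeq2 1.22.2 and FastQC 0.11.7.

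In every library 100% of values were whole multiples of 1 step (tolerance 0.05), which recovered the reads. Pairs of replicate libraries had a chi-square of 9.04 to 45.1 per degree of freedom, above counting noise. Intervals of counting error and the floor of 3 reads cover counting error only.

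The members and lists were chosen with earlier results of these data known. Limma 3.58.1 (R 4.3.3, 4 group means, trend) was fitted to log2 of the normalized count plus 1 for 18579 genes with at least 10 recovered reads, with Benjamini-Hochberg adjustment over all of them, and the pseudocount understates changes of low genes. An exact test of 3 against 3 cannot go below 0.1. The fit was tested on simulated data. Alternatives were edgeR 4.0.16 and DESeq2 1.42.0 on recovered reads, TMM scaling, pseudocounts of 0.5 and 16, other filters, a replicate block, other limits of the rule and each library left out. Deviations of same-numbered libraries had a mean r of 0.00089 (range -0.15 to 0.15), so the numbers do not pair libraries.

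Genes were named by rule: members of 19 functional lists, the 10 lowest by mean log2 ratio, the 5 highest, those called for the difference in response, the 5 largest differences between lines under vehicle in each direction, the 3 nearest each side of the limit, and the rest by name. Exceptions are stated where they occur. Some members are counted but not reported by name here. Gene positions came from RefSeq (GRCh38.p14) and shared sequence from GENCODE transcripts. Python 3.11.15 was used for the tables.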

Additional observations from a re-analysis of the deposited data

Results flagged for a closer look

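The responses of 5 of the 148 genes differed between the lines by a test of the difference itself, an interaction term in limma with adjustment over all 18579 genes tested. The value is the log2 response of the S134A-GR line after subtracting that of the wt-GR line. It was -0.67 (SE 0.12, adjusted p = 0.0318) for AHRR, -0.66 (SE 0.12, adjusted p = 0.0259) for F2RL3 and -0.37 (SE 0.065, adjusted p = 0.0256) for WNT7B, which had the larger fall in S134A-GR cells. It was 0.42 (SE 0.061, adjusted p = 0.00870) for CSF1 and 0.32 (SE 0.06, adjusted p = 0.0332) for TIMP3, which had the smaller fall. With each of the 12 libraries left out in turn, CSF1 was called in 12 fits, F2RL3, AHRR and WNT7B in 3 each and TIMP3 in 2. Groups of 3 libraries were not tested for outlying values. The genotype and other differences between the 2 clones cannot be told apart.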

How the results depend on the processing

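The number of genes meeting the rule was 36 with a ratio limit of 0.5 and 368 with 0.75. With the other limits, scalings and a rule that allowed overlap it was 115 to 215, and 141 to 155 with a library left out. The number of the 148 whose response differed was 5 in the main analysis, 2 with the replicate block (CSF1 and WNT7B) and 1 to 5 with a library left out. It was 5 in edgeR, where 78 of all genes were called against 77 in limma, and 7 in DESeq2, where 210 were called. The replicate block gave adjusted p of 0.0519 for AHRR and 0.0528 for both F2RL3 and TIMP3, with highest values over all alternatives of 0.108, 0.0849 and 0.119, and changed the counts of line differences by at most 2. With a library left out, the median difference in response stayed between 0.012 and 0.064. The counts lower in S134A-GR cells ran from 62 to 65 under vehicle and from 59 to 67 under TGFβ1, and the counts higher from 36 to 41 and from 38 to 43. Over the 20 alternative fits of the model, all 106 genes called between lines under vehicle kept their direction, and 94 were called in every one. Leaving out a library also removes a degree of freedom. Scaling choices moved the median of all genes by at most 0.068 on the log2 scale. The SE of the difference in response reached 0.48 for LGR5, whose libraries spread widely, and the part of depth in it was not tested.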
